A study of Mus musculus with 15 samples.

Results

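Motile ciliated cells line the airways and move mucus out of the lung with beating cilia. Foxj1 is the forkhead transcription factor that switches on the genes of the motile cilium, and the RFX factors Rfx2 and Rfx3 bind the X-box motif in the promoters of many of these genes. Tppp3, Fam183b, Riiad1 and Nme9 are used as markers of ciliated cells. These 7 genes, 3 regulators and 4 markers, were taken from the deposited gene table by symbol. All 7 were found among its 14766 protein-coding genes, and all 7 passed the filter on low values.

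RNA was sequenced from whole lung tissue of 15 wild-type mice, all in batch 1 per the labels, with 5 mice per group. OVA_Rg3 mice had asthma induced with ovalbumin (OVA, an egg protein used as an allergen), injected into the peritoneum and then inhaled as an aerosol, and were given ginsenoside Rg3, a ginseng saponin, at 20 mg/kg by gavage during the induction. OVA mice had the same induction and no Rg3. Control mice received saline with neither agent. Strain, sex and age were not given in the labels used here. The replicates are separate mice per the labels. In bulk tissue, fewer ciliated cells and less RNA per ciliated cell cannot be told apart.

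Values are taken as FPKM, reads scaled by transcript length and by the reads of the library, a unit inferred from the values because the table names none. The steps that single reads make in the low values imply 0.218 M reads in OVA_Rg3 1 and 0.838 M in control 2, and 1.61 to 9.10 M in the other libraries. The 13 mitochondrially encoded genes took 41.6% to 70.5% of all values in OVA_Rg3 libraries, 46.2% to 79.8% in OVA libraries and 18.9% to 29.3% in control libraries. The median gene shifted with them, by log2 0.32 between OVA_Rg3 and OVA lungs, -0.43 between OVA_Rg3 and control lungs and -0.73 between OVA and control lungs. Each result is therefore given as deposited and after median-ratio scaling, which left median shifts of -0.02, -0.06 and -0.02 in the same order. OVA_Rg3 1, OVA 4 and control 2 had the highest summed liver markers of their groups. The sums were 1609 FPKM in OVA_Rg3 1, 201 FPKM in OVA 4 and 416 FPKM in control 2. The group medians were 18.8 FPKM in OVA_Rg3, 5.17 FPKM in OVA and 1.87 FPKM in control libraries. Counts of members called are given with and without the 3 libraries of highest sums. Counts in other gene lists, and of groups that did not overlap, use all 15 libraries.

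Promoter sequences (RefSeq, GRCm38.p6) were matched for 4 of the 7 genes, Rfx2, Rfx3, Fam183b and Nme9. Foxj1, Tppp3 and Riiad1 had no entry. The stretches below are shown because they hold the letters to which RFX factors are known to bind. All 3 genes lie on the minus strand, and the sequences read 5′ to 3′ along the gene. The 250 bases before each gene start were searched on both strands for an X-box written as GTNNCC, then 0 to 3 bases, then NGNAAC, for its half-sites GTTGCC and GTTACC, and for the forkhead core GTAAACA. Capitals mark the matches.
Rfx2, chr17:56831009-56831158, the 150 bases before the gene start: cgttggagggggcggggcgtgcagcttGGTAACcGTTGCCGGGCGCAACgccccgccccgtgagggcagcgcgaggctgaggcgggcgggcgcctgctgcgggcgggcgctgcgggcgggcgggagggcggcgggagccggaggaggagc
Fam183b, chr11:58801961-58802110, the 150 bases before the gene start: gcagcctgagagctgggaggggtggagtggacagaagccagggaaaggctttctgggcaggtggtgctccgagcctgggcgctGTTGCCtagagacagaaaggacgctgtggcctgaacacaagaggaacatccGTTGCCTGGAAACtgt
Rfx3, chr19:28011119-28011148, 30 bases after the gene start: agttatagcaaccGTTGCCttgtgaatcaa

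An X-box match was found in 2 of the 4 promoters. In Rfx2 it lay from -116 to -102 bases relative to the gene start, and it includes a GTTGCC half-site. A GTTACC half-site on the opposite strand lay just before it, from -123 to -118. In Fam183b the X-box lay from -16 to -4, matched on both strands and also includes a GTTGCC half-site, and another GTTGCC lay from -67 to -62. Of 32851 promoters in the same table, 4.42% held an X-box match in the 250 bases before the start, 10.4% held GTTGCC and 6.06% held GTTACC. Rfx3 held none of the motifs before its start and a GTTGCC after it, from 32 to 37, where 12.5% of promoters hold one in the whole window of 300 bases. Nme9 held none of the motifs. The forkhead core was in none of the 4 windows and in 3.17% of all promoters. These are matches of letters in short windows, and binding was not measured.

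In OVA_Rg3 lungs Tppp3 had the highest mean level of the 7 genes at 105 ± 38.7 FPKM, and Foxj1 averaged 34.0 ± 17.0 FPKM (SD, n = 5). In OVA lungs Tppp3 stood highest at 62.1 ± 26.7 FPKM and Fam183b was next at 48.8 ± 30.1 FPKM (SD, n = 5), with Foxj1 at 23.8 ± 16.2 FPKM and Rfx3 lowest at 0.832 ± 0.476 FPKM. In control lungs the markers Fam183b and Tppp3 were the most abundant of the 7 genes, at 337 ± 129 FPKM and 315 ± 76.3 FPKM (SD, n = 5). Foxj1 followed at 150 ± 53.3 FPKM (SD, n = 5), Nme9 at 75.2 ± 27.1 FPKM and Riiad1 at 60.1 ± 22.1 FPKM. The RFX factors were lowest, Rfx2 at 10.3 ± 5.46 FPKM and Rfx3 at 3.13 ± 0.471 FPKM (SD, n = 5). In this order of control levels, per length of transcript, the ranges over control libraries overlapped between each gene and the next except between Riiad1 and Rfx2. The median control library ranked Tppp3 above 99.5% of the genes in the table and Rfx3 above 40.9%.

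**Figure D1:**
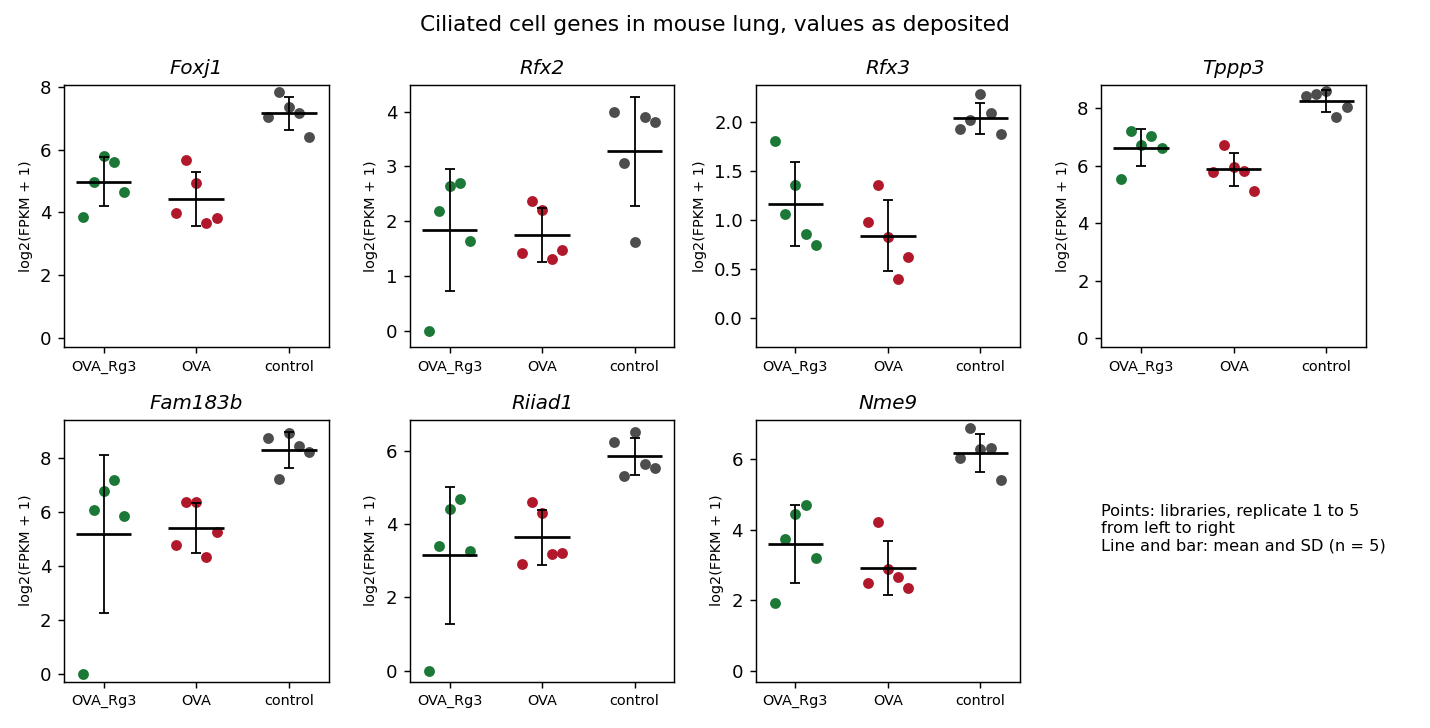
Level of each of the 7 ciliated cell genes as log2(FPKM + 1) in OVA_Rg3, OVA and control lungs. Points are libraries, lines are means and bars are SD (n = 5). In 6 of the 7 genes all 5 OVA libraries lie below all 5 controls, and Rfx2 is the exception through control 3. Points at 0 are OVA_Rg3 1.

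All 7 genes fell in OVA lungs relative to control lungs as deposited. In this comparison 51.2% of the 12137 genes tested were called lower (limma, Benjamini-Hochberg adjusted p under 0.05), so members and other genes moved the same way in much of the table. Their median change was log2 -2.38, against -0.73 over all genes tested. After median-ratio scaling 4 of 7 fell (Foxj1, Rfx3, Tppp3 and Nme9), where 8.39% of all genes were called lower, and the members' median change was -1.42 against -0.02. Without OVA 4, control 2 and OVA_Rg3 1, all 7 fell as deposited (54.2% of all genes) and 5 after scaling (10.7% of all genes), with Fam183b added to the 4. Groups did not overlap in 6 of 7 members as deposited, against 32.1% of all genes in this direction, and in 4 of 7 after scaling, against 9.24%.

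The regulators come first. Foxj1 (ENSMUSG00000034227.7, chr11:116330704-116335399, minus strand, GRCm38 as in the deposited table) had 14.8, 49.7, 29.6, 11.7 and 13.1 FPKM in OVA lungs 1 to 5, against 129.7, 229, 164, 142 and 83.5 FPKM in control lungs 1 to 5. Every OVA library was below every control. The change was log2 -2.75 (SE 0.42, adjusted p = 0.000183 in limma) as deposited and -1.80 (adjusted p = 0.0127 in limma) after scaling.

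Rfx2 (ENSMUSG00000024206.14, chr17:56775897-56831008, minus strand) had 1.66, 4.16, 3.58, 1.48 and 1.78 FPKM in OVA lungs, against 14.9, 7.33, 2.08, 14.0 and 13.1 FPKM in control lungs. Control 3 lay within the OVA range and the other 4 controls lay above it. The gene fell by 1.53 on the log2 scale (SE 0.51, adjusted p = 0.0205 in limma) as deposited. After scaling the value was -0.75 and the adjusted p of limma 0.358. The call as deposited was lost without control 1 (adjusted p = 0.0539 in limma), control 4 (0.0527) or OVA 4 (0.0518).

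Rfx3 (ENSMUSG00000040929.16, chr19:27761721-28011166, minus strand) had 0.967, 1.56, 0.772, 0.319 and 0.537 FPKM in OVA lungs, against 2.81, 3.04, 3.87, 3.25 and 2.67 FPKM in control lungs. Every OVA library was below every control, and the controls lay close together, with an SD of 0.471 FPKM around 3.13 FPKM (n = 5). Rfx3 fell by 1.20 on the log2 scale (SE 0.24, adjusted p = 0.00103 in limma) as deposited and by 0.65 after scaling (adjusted p = 0.0407 in limma). The scaled call was lost without any one of controls 1 to 4 or OVA 1, 4 or 5, with adjusted p up to 0.102 in limma (without OVA 4, change -0.57). At these low levels the pseudocount of 1 makes the fold change smaller than the ratio of the values. Rfx3 passed the filter on low values with the help of the controls, and did not pass with only OVA_Rg3 and OVA libraries.

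Among the markers, Tppp3 (ENSMUSG00000014846.12, chr8:105467493-105471526, minus strand), a tubulin polymerization-promoting protein that binds microtubules, had 54.5, 106, 61.0, 55.5 and 33.6 FPKM in OVA lungs, against 349, 366, 389, 209 and 261 FPKM in control lungs. The groups did not overlap, and OVA 2 was the highest of the OVA libraries. Tppp3 fell by 2.38 on the log2 scale (SE 0.32, adjusted p = 9.59e-05 in limma) as deposited and by 1.42 (adjusted p = 0.00948 in limma) after scaling, and was called in every fit that left out 1 library.

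Nme9 (ENSMUSG00000046242.8, chr9:99451475-99474751, plus strand), of the nucleoside diphosphate kinase family, had 4.62, 17.7, 6.40, 5.34 and 4.07 FPKM in OVA lungs, against 64.1, 116, 76.3, 79.1 and 41.0 FPKM in control lungs. OVA 2 was well above the other OVA libraries and still below every control. The change was log2 -3.26 (SE 0.47, adjusted p = 0.000140 in limma) as deposited and -2.35 (adjusted p = 0.00544 in limma) after scaling, the largest of the 7 on both scales.

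Fam183b (ENSMUSG00000049154.11, chr11:58792797-58801960, minus strand), a small cilium-associated protein, had 26.0, 80.9, 81.2, 18.9 and 37.2 FPKM in OVA lungs, against 422, 146, 482, 343 and 292 FPKM in control lungs. The groups did not overlap as deposited, with control 2 the lowest control. The change was log2 -2.88 (SE 0.98, adjusted p = 0.0236 in limma), in a fit whose spread includes OVA_Rg3 1, where the gene is listed at 0. Without OVA_Rg3 1 it was -2.88 with an SE of 0.42 (adjusted p = 8.47e-05 in limma). The call was lost without control 1 (adjusted p = 0.0504 in limma), control 3 (0.0516), OVA 4 (0.0567) or, at the threshold itself, OVA 5. After scaling it was -1.92 (adjusted p = 0.234 in limma), and without OVA_Rg3 1 the scaled value was -1.89 and was called (adjusted p = 0.00665 in limma).

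Riiad1 (ENSMUSG00000028139.5, chr3:94464983-94480341, minus strand), which carries a domain related to protein kinase A regulatory subunits, had 6.54, 23.5, 18.8, 8.09 and 8.20 FPKM in OVA lungs, against 74.9, 39.3, 91.5, 49.3 and 45.7 FPKM in control lungs. No OVA library reached the lowest control, control 2. Riiad1 fell by 2.22 on the log2 scale (SE 0.65, adjusted p = 0.0115 in limma) as deposited. After scaling it was -1.28 (adjusted p = 0.237 in limma), and it was called (-1.25, adjusted p = 0.0322 in limma) without OVA_Rg3 1.

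Within the OVA group the order of the libraries depended on the scale. As deposited OVA 2 had the highest value in 6 of the 7 genes and OVA 3 in the other, Fam183b, while OVA 4 had the lowest in 4. After median-ratio scaling OVA 3 had the highest value in 5 of the 7 (all but Rfx3 and Nme9, which were highest in OVA 2), and OVA 1 had the lowest in 6 (all but Rfx3, lowest in OVA 4). Mitochondrially encoded genes took 46.2% of values in OVA 1, 49.9% in OVA 2 and 79.8% in OVA 4, and their part in these orders was not tested. With mitochondrially encoded genes left out of the total, the 7 genes together made up 0.0344% to 0.167% of the remaining values in OVA_Rg3 libraries, 0.0465% to 0.126% in OVA libraries and 0.208% to 0.387% in control libraries. The medians were 0.121%, 0.0847% and 0.256% in the same order. The lowest OVA_Rg3 share is that of OVA_Rg3 1, where Rfx2, Fam183b and Riiad1 are listed at 0.

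**Figure D2:**
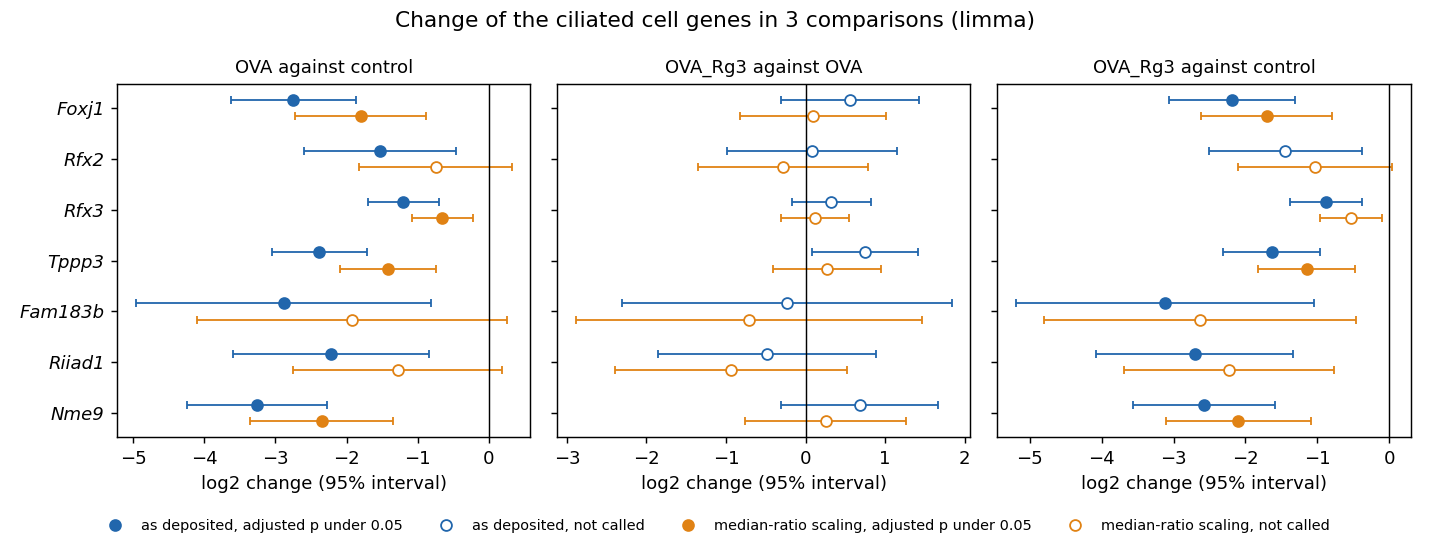
Log2 change of each gene with its 95% interval (limma) in 3 panels, OVA against control on the left, OVA_Rg3 against OVA in the middle and OVA_Rg3 against control on the right, as deposited in blue and after median-ratio scaling in orange. Filled points have an adjusted p under 0.05. All 7 are filled in OVA against control as deposited and 4 after scaling, and none are filled in OVA_Rg3 against OVA.

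With Rg3 given during the induction, none of the 7 genes was called against OVA lungs, on either scale. In this comparison 0.0% of all genes tested were called lower and 0.0% higher (limma). At an unadjusted p of limma under 0.05, 1723 genes were higher and 33 lower as deposited (1 member, Tppp3). After scaling 390 were higher and 668 lower, with no member. The values and intervals below are what the design can say, and a p above the threshold does not show that the groups were alike.

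Tppp3 had 46.1, 146, 105, 132 and 96.9 FPKM in OVA_Rg3 lungs 1 to 5, and 4 of these 5 were above 4 of the 5 OVA libraries. Its change was log2 0.75 (95% interval 0.08 to 1.42, adjusted p = 0.324 in limma) as deposited and 0.27 (interval -0.41 to 0.94) after scaling. Foxj1 had 13.5, 30.4, 55.0, 47.3 and 23.8 FPKM in OVA_Rg3 lungs. Its range overlapped that of OVA lungs over most of its length, and its change was log2 0.56 (interval -0.31 to 1.43) as deposited and 0.09 (interval -0.82 to 1.01) after scaling.

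Nme9 had 2.79, 12.4, 20.9, 24.8 and 8.18 FPKM in OVA_Rg3 lungs, a spread that took in all of the OVA values. The lowest of these, in OVA_Rg3 1, lies below the 11.5 FPKM that 3 reads of Nme9 are worth there. The change of Nme9 was log2 0.68 (interval -0.30 to 1.66) as deposited and 0.25 (interval -0.75 to 1.26) after scaling. Without OVA_Rg3 1 it was 1.10 as deposited and 0.67 after scaling, and it was not called. Rfx3 had 2.48, 1.09, 1.55, 0.804 and 0.668 FPKM in OVA_Rg3 lungs, with OVA_Rg3 1 the highest. Its change was 0.32 (interval -0.17 to 0.82), and without OVA_Rg3 1 it was 0.16 as deposited and -0.04 after scaling.

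Rfx2, Fam183b and Riiad1 were listed at 0 in OVA_Rg3 1. At the depth implied for this library 3 reads are worth 3.32 FPKM of Rfx2, 24.3 FPKM of Fam183b and 21.9 FPKM of Riiad1 on the longest annotated transcript, counting error only, so a level as in the lowest OVA lung would not have been detectable there. In OVA_Rg3 lungs 2 to 5, Rfx2 had 3.57, 5.28, 5.48 and 2.11 FPKM. Fam183b had 66.0, 109, 142 and 56.8 FPKM in the same lungs. Riiad1 had 9.56, 20.3, 25.1 and 8.68 FPKM in them. All 12 of these values lie above the lowest OVA library of their gene, and each gene's range overlapped the OVA range.

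The changes of these 3 genes in OVA_Rg3 against OVA turned on that library. As deposited they were 0.08 for Rfx2 (interval -0.98 to 1.15), -0.23 for Fam183b (interval -2.31 to 1.84) and -0.49 for Riiad1 (interval -1.86 to 0.89). Without OVA_Rg3 1 they were 0.54, 1.06 and 0.30, none of them called, with adjusted p of 0.443, 0.274 and 0.624 in limma. After scaling with all libraries they were -0.28, -0.71 and -0.94. When libraries were weighted by their spread (limma array weights), 5 of the 7 genes were called higher in OVA_Rg3 than in OVA lungs (Foxj1, Rfx3, Tppp3, Fam183b and Nme9), where 57.2% of all genes were called higher.

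OVA_Rg3 lungs were also set against the same 5 control lungs, so the 2 comparisons with controls are not independent. Here 6 of 7 genes fell as deposited, where 15.8% of all genes were called lower (limma), and 6 of 7 did not overlap, where 18.5% of all genes did not overlap in this direction. The changes were log2 -2.19 for Foxj1 (adjusted p = 0.00345 in limma), -0.88 for Rfx3, -1.63 for Tppp3, -2.57 for Nme9, -3.12 for Fam183b and -2.70 for Riiad1. Rfx2 did not pass, at -1.44 (adjusted p = 0.0584 in limma), and passed without control 3 (adjusted p = 0.0237 in limma), OVA_Rg3 3 (0.0479) or OVA_Rg3 4 (0.0443). Fam183b lost its call without control 1, 3, 4 or 5 or OVA_Rg3 5 (adjusted p of limma 0.0615 to 0.0920), and Rfx3 without control 3 (0.0565) or OVA_Rg3 5 (0.0561).

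After scaling, 3 of 7 fell in OVA_Rg3 against control (Foxj1, Tppp3 and Nme9), where 4.75% of all genes were called lower. Their changes were log2 -1.71, -1.15 and -2.10, and the 3 calls stood close to the threshold (adjusted p of limma 0.0290, 0.0403 and 0.0203). Not called on this scale were Rfx2 (-1.03), Rfx3 (-0.53), Fam183b (-2.63) and Riiad1 (-2.22). The scaled ranges of Rfx2, Rfx3 and Fam183b overlapped between OVA_Rg3 and control lungs. Foxj1 lost its call without control 1, 2, 3 or 4 or OVA_Rg3 2 or 5 (adjusted p up to 0.0770 in limma, without control 3). Tppp3 lost it without control 1, 2, 3 or 4 or OVA_Rg3 1, 2, 3 or 5 (up to 0.109, without control 3), and Nme9 without control 3 (0.0593) or 4 (0.0561). Rfx3 was called without OVA_Rg3 1 (0.0246), and Riiad1 without OVA_Rg3 1 (0.0470), 3 (0.0441) or 4 (0.0364). Without OVA_Rg3 1, OVA 4 and control 2 together, 6 of 7 fell as deposited (18.6% of all genes) and 2 after scaling (Rfx3 and Nme9, 3.60% of all genes).

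Levels relative to Foxj1 in the same library do not depend on how libraries are scaled. An exact permutation test, two-sided, was run on the ratio of each of the other 6 genes in 3 comparisons, 18 tests in all, and the p-values are unadjusted. These tests were added after seeing the data. Nme9 stood at 31.2%, 35.5%, 21.6%, 45.6% and 31.1% of Foxj1 in OVA lungs 1 to 5, against 49.4%, 50.5%, 46.6%, 55.7% and 49.1% in control lungs 1 to 5. No OVA library reached the lowest control, the difference of mean log2 ratios was -0.65, and the exact p of 0.00794 is the smallest that 5 against 5 can give. Without OVA 4 and control 2 the difference was -0.77 (exact p = 0.0286, the smallest for 4 against 4). The planned limma fit, described below, gave -0.51 for Nme9 relative to Foxj1 (adjusted p = 0.342 in limma) and did not call it.

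In OVA_Rg3 lungs 1 to 5 Nme9 stood at 20.7%, 40.9%, 37.9%, 52.4% and 34.4% of Foxj1. The first of these rests on 2.79 FPKM of Nme9 in OVA_Rg3 1, where 3 reads are worth 11.5 FPKM. The difference from control lungs was -0.49 (exact p = 0.0397), and without OVA_Rg3 1 and control 2 it was -0.29 (exact p = 0.114). Rfx3 stood at 2.61% to 6.53% of Foxj1 in OVA lungs and 1.33% to 3.19% in control lungs, which overlap, with a difference of 0.72 (exact p = 0.0476), and without OVA 4 and control 2 of 0.64 (exact p = 0.0857). Riiad1 stood at 31.5% to 53.0% of Foxj1 in OVA_Rg3 lungs 2 to 5 and 44.2% to 69.1% in OVA lungs, with a difference of -0.54 (exact p = 0.0476), and without OVA 4 of -0.47 (exact p = 0.0857). In the other 14 tests the exact p was 0.0952 or more and the groups overlapped, so unequal change of Rfx2, Tppp3 and Fam183b relative to Foxj1 was not detectable here.

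A limma fit of the log2(FPKM + 1) differences from Foxj1 uses a scale on which a low gene can fall little. It called Rfx2 (1.22) and Rfx3 (1.54) higher relative to Foxj1 in OVA against control, in a comparison where 93.0% of genes were called higher, and Rfx3 (1.31) in OVA_Rg3 against control, where 89.0% were. With a pseudocount of 0.1 it called none of the 6. At that setting 9009 of 12136 genes were called higher in OVA against control and 7961 in OVA_Rg3 against control.

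**Figure D3:**
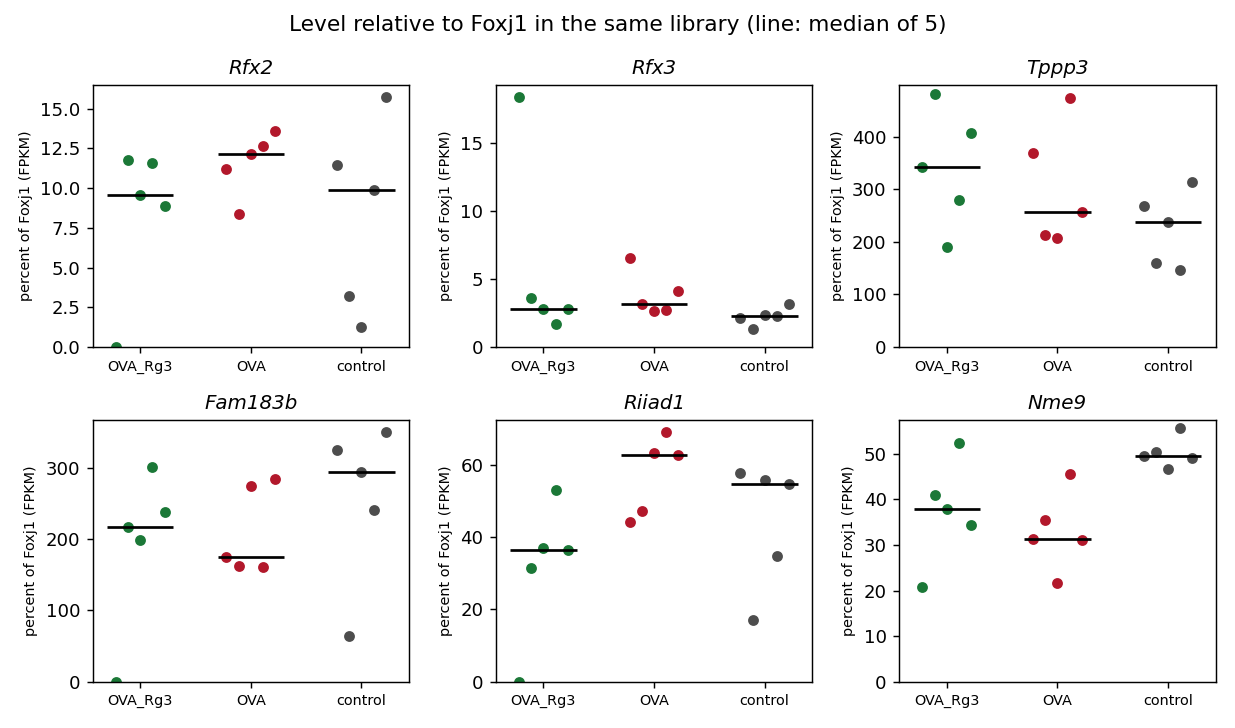
Level of each gene as a percentage of the Foxj1 level in the same library, in OVA_Rg3, OVA and control lungs. Points are libraries and lines are medians of 5. Nme9 lies at 21.6% to 45.6% in OVA lungs and 46.6% to 55.7% in control lungs, and points at 0 are OVA_Rg3 1.

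The wider program of the motile cilium was followed in 3 further lists, chosen with earlier results of these data known. The first list, of ciliogenesis regulators, also holds other RFX factors and broader factors of airway epithelium such as Foxa1. Not all of its genes are known to act upstream of or beside Foxj1. All 14 of the 14 tested (of 19 listed) fell in OVA against control as deposited, where 51.2% of all genes did, and 7 of 14 after scaling, where 8.39% of all genes did, with a median change of -1.15 against -0.02 over all genes. The 3 of smallest p were Foxa1, Gmnc and Myb. Gmnc, the geminin-like factor that starts the multiciliated fate, had 0.136 to 0.516 FPKM in OVA lungs and 1.70 to 5.68 FPKM in control lungs, and fell by 1.29 on the log2 scale after scaling (adjusted p = 0.00429 in limma). Its OVA values are low for the depth, since 3 reads on 1 kb are worth 0.825 to 1.03 FPKM in OVA libraries. With at most 1.30 FPKM in OVA_Rg3 lungs, Gmnc passed the filter on low values mainly through the control libraries. Genes that pass in this way are high in controls by selection, so they add little to the count of 14. Myb, which acts early in multiciliated cell differentiation, had 0.819 to 3.02 FPKM in OVA lungs and 6.51 to 10.7 FPKM in control lungs, and fell by 1.38 after scaling (adjusted p = 0.0172 in limma). Foxa1, a forkhead factor of airway epithelium, had 0.884 to 5.18 FPKM in OVA lungs and 12.2 to 33.7 FPKM in control lungs, and fell by 1.74 after scaling (adjusted p = 0.00590 in limma).

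The motile axoneme list holds dynein arms, radial spokes, tektins and the proteins that assemble them. All 51 tested (of 55 listed) fell in OVA against control as deposited, where 51.2% of all genes did. After scaling 41 of 51 fell, where 8.39% of all genes did, with a median change of -1.42 against -0.02. Its 3 genes of smallest p were Cfap45, Ccdc151 and Ccdc113. Ccdc151, which is needed to dock outer dynein arms, had a median of 3.75 FPKM in OVA_Rg3 lungs, 1.41 FPKM in OVA lungs and 15.9 FPKM in control lungs. Of the other ciliated cell markers 23 of 24 fell as deposited and 13 of 24 after scaling, beside the same shares of all genes. Their median change after scaling was -1.47. Mlf1 was among them, with a median of 14.2 FPKM in OVA_Rg3 lungs, 5.19 FPKM in OVA lungs and 40.4 FPKM in control lungs, and so was 1700007K13Rik. Tuba1a, an alpha-tubulin made in many cell types, fell as deposited (-1.42, adjusted p = 4.71e-05 in limma) and was not called after scaling (-0.45, adjusted p = 0.194 in limma).

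None of the genes of these 3 lists was called in OVA_Rg3 against OVA on either scale. In OVA_Rg3 against control 10 of 14 regulators, 49 of 51 axoneme genes and 22 of 24 other markers fell as deposited, where 15.8% of all genes tested did. After scaling 4, 37 and 10 of them fell, where 4.75% of all genes did. The summed level of the axoneme list was 111 to 461 FPKM in OVA_Rg3 lungs, 108 to 380 FPKM in OVA lungs and 822 to 1456 FPKM in control lungs.

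**Figure D4:**
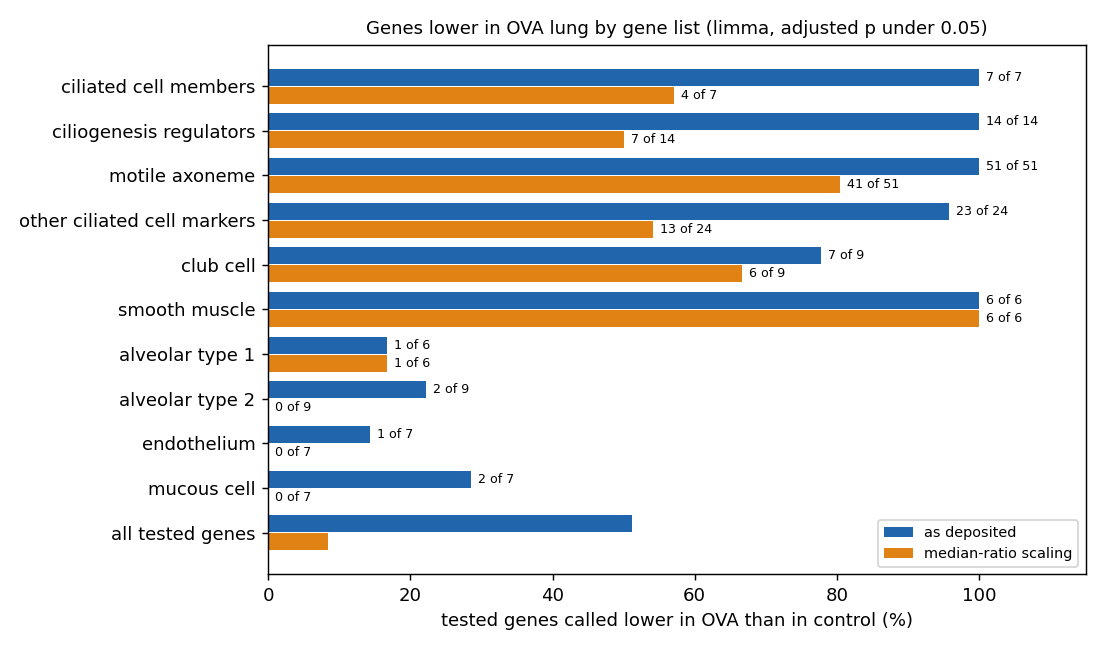
Share of tested genes called lower in OVA than in control lungs (limma, adjusted p under 0.05), by gene list and over all tested genes, as deposited in blue and after median-ratio scaling in orange. Numbers beside the bars are genes called of genes tested, and all 6 smooth muscle genes and 41 of 51 axoneme genes are called after scaling.

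Genes of club cells and smooth muscle fell in the same libraries, where 51.2% of all genes fell in OVA against control as deposited and 8.39% after scaling. Of the other airway lists, given below, 0 of 7 mucous cell and 0 of 2 basal cell genes tested fell after scaling. Of 9 club cell genes (the secretory cells that share the airway lining with ciliated cells) 7 fell in OVA against control as deposited and 6 after scaling, and their summed level was 22000 to 46842 FPKM in OVA_Rg3 lungs, 13615 to 69007 FPKM in OVA lungs and 68481 to 237519 FPKM in control lungs. All 6 smooth muscle genes fell on both scales, and Acta2, the smooth muscle actin, had 35.4 to 107 FPKM in OVA_Rg3 lungs, 18.5 to 25.9 FPKM in OVA lungs and 137 to 258 FPKM in control lungs. The summed smooth muscle level was 134 to 293 FPKM in OVA_Rg3 lungs, 63.0 to 133 FPKM in OVA lungs and 579 to 786 FPKM in control lungs. No gene of the club cell and smooth muscle lists was at 0 in all libraries of a group. Their part in the fall of the ciliated cell genes was not tested.

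Genes of other cell types were counted in the same way. Over all genes tested in OVA against control, 51.2% fell and 0.577% rose as deposited, and 8.39% fell and 6.32% rose after scaling. Of 9 alveolar type 2 genes 2 fell as deposited (Sftpb and Abca3) and none after scaling. Of 6 alveolar type 1 genes 1 fell on both scales (Aqp5, also made in airway glands), and of 7 endothelial genes 1 fell as deposited (Kdr) and 1 rose after scaling. Of 7 mucous cell genes tested, Clca1, made by goblet cells of allergic airways, rose on both scales (log2 2.81, adjusted p = 0.0182 in limma as deposited). It had 39.1 to 295 FPKM in OVA_Rg3 lungs, 10.2 to 176 FPKM in OVA lungs and 0.561 to 51.0 FPKM in control lungs, and Agr2 and Tff2 fell as deposited only. Of 7 lymphocyte and granulocyte genes tested 1 rose as deposited (Jchain, of antibody-secreting cells) and 2 after scaling. Of 2 basal cell genes tested, Krt15 fell as deposited and neither was called after scaling.

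Motile cilia and flagella also occur in sperm and in the ependyma, whose genes overlap with those of airway cilia. In OVA against control 51.2% of all genes tested fell as deposited and 8.39% after scaling. Of 12 testis and sperm genes, 3 passed the filter. Odf2 and Acr fell as deposited and none were called after scaling, and the summed level of the list was 5.80 to 49.4 FPKM in OVA_Rg3 lungs, 2.01 to 31.6 FPKM in OVA lungs and 10.9 to 18.4 FPKM in control lungs. Of 6 ependyma and choroid plexus genes, 3 were tested, and Clic6 and Kcnj13, which are also made in other epithelia, fell on both scales. None of 4 tested liver genes was called in any of the 3 comparisons.

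The genes closest in pattern to Foxj1 over the 15 libraries were mostly from the cilium lists. Likeness was the root-mean-square difference in log2(FPKM + 1) after each gene's mean was taken off. Ccdc153 was nearest (0.25), then Ccdc65 (0.28), Ccdc151 (0.30), Ttc21a (0.30) and Cdhr3 (0.31), against a spread of 1.36 for Foxj1 itself. All but Ttc21a are in the lists above, and 4 of the 5 (all but Ccdc151) were again among the nearest 5 after scaling. Among the members Nme9 was nearest to Foxj1 (0.35), then Tppp3 (0.49), and Rfx3 (0.95) and Fam183b (1.37) were the farthest. These distances include OVA_Rg3 1, where Fam183b is listed at 0 and 3 reads of it are worth 24.3 FPKM. Distances without that library were not computed.

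For Tppp3 the nearest were Klhdc9, Krt8, Rsph14, Appl2 and BC022687 (0.30 to 0.35), and after scaling none of these 5 was among the nearest 5. For Rfx3 they were Sod2, Bbs7, Coa6, Mrpl34 and Bcl7a (0.16 to 0.18, against its own spread of 0.59), of which Bbs7, a subunit of the complex that carries cargo to cilia, was again among the nearest after scaling. For Rfx2, Slco1a5, Gmnn, Pdlim3 and Zfp938 were among the nearest (0.54 to 0.55), against its own spread of 1.07. In the values as deposited the median gene shifted between groups, and many genes share that shift, so likeness is a description of these libraries.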

How the data were processed

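Lung RNA of 15 mice was sequenced from oligo(dT)-enriched TruSeq libraries, per the labels' protocols. Trimmomatic and featureCounts, and GRCm39 or mm39 as builds, are listed in the submitters' processing notes, while the deposited positions match GRCm38 (13545 of 14766 genes as in GENCODE M21 of that build). The deposited values are taken as FPKM, inferred from the values. TPM over a larger gene set remains possible, and read counts were not used here. Low values within 5% of whole-read steps made up 21.7% to 42.4%, against 10% by chance, and gave the implied depths.

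The 12137 genes that reached 1 FPKM in 5 or more libraries were tested on log2(value + 1) with limma 3.58.1 in R 4.3.3, with 1 mean per group over all 15 libraries, a mean-variance trend, robust estimation and Benjamini-Hochberg adjustment over all genes tested. The filter counts libraries of any group, so a gene can pass through the group where it is high. A gene was called at an adjusted p under 0.05. Fold changes are on the log2(value + 1) scale, which understates changes of low genes. The fit was also run on simulated data with independent noise in each gene. These hold neither the shift of the median gene nor the differing depths, so they cannot tell how the fit handles them. Median-ratio scaling divided each library by the median ratio of its genes to their geometric mean. Ratios to Foxj1 used exact permutation tests (scipy 1.17.1). Similar genes had a mean of at least 1, and numbered gene models were left out. Alternatives were other normalizations, pseudocounts and filters, array weights, fits of the groups compared, a replicate block and left-out libraries. Scaling to the sum without mitochondrial genes, the scaled fits with the block or with the groups compared, and the exact ratio tests were added after seeing the data. The named genes were the 7 members, the 3 genes of smallest p in OVA against control from each list, and the 5 nearest in pattern, of which 1 is not reported here. The members and lists were chosen with earlier results of these data known. Same-numbered libraries did not pair.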

Additional observations from a re-analysis of the deposited data

Results flagged for a closer look

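Within groups of 5 libraries, 39 sets of values (levels of the 7 genes and their ratios to Foxj1) were examined for a library far from the others with Dixon's test, whose critical value is 0.71 for 5 values. Chance alone marks about 1 in 20 such sets, and 3 were marked. Nme9 in OVA 2, at 17.7 FPKM, stood above the other 4 OVA libraries (Dixon ratio 0.828), and this library was the highest of its group in 6 of the 7 genes as deposited. After median-ratio scaling the ratio was 0.476, below the critical value, and OVA 2 was the highest in 2 of the 7 genes. Rfx3 in OVA_Rg3 1 was 18.4% of Foxj1, above 1.70% to 3.58% in OVA_Rg3 2 to 5 (Dixon ratio 0.888). Rfx2 in OVA_Rg3 1 was 0% of Foxj1, below 8.87% to 11.8% in OVA_Rg3 2 to 5 (Dixon ratio 0.755). The last 2 are in the library of lowest implied depth, 0.218 M reads, where 3250 genes are listed at 0 and 3 reads of Rfx3 are worth 1.51 FPKM against its level of 2.48 FPKM.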

How the results depend on the processing

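Pairs of numbers are for OVA against control and then OVA_Rg3 against control. As deposited 7 and 6 of the 7 genes were called, among 6286 and 2016 genes of the whole table. Median-ratio scaling gave 4 and 3 members, among 1785 and 939 genes. Quantile normalization gave 3 and 4, among 2006 and 1187, and a pseudocount of 0.1 gave 4 and 3, among 5636 and 959. A filter of at least 5 FPKM, under which 6 members were tested, called 3836 and 1197 genes, and array weights 10020 and 7369. Scaling without the 3 libraries called 5 and 2 members, among 2457 and 1011 genes, and scaling with only the groups compared called 6 and 2, among 2476 and 760. Scaling to the sum without mitochondrial genes called 3 and 2 members, among 1232 and 726 genes, and 6 and 3 without the 3 libraries, among 2175 and 885. When each library was left out in turn, 5 to 7 and 4 to 7 members were called as deposited, among 4412 to 7447 and 1063 to 2574 genes, and 3 to 6 and 0 to 4 after scaling, among 1022 to 2820 and 173 to 1154 genes. Relative to Foxj1 the pseudocount of 0.1 left 0 members in both, where 9009 and 7961 of 12136 genes were called higher. Leaving out the 3 libraries left 1 and 0, where 10108 and 7620 of 11799 genes were called higher. The cause of these differences was not tested.

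The replicate numbers share no more than a number. Of 15 same-numbered pairs, 5 had correlated deviations above 0.1 (range -0.38 to 0.32), and in 6 of 30 cases a library correlated best with its own number in another group. With the replicate block 7 and 6 members were called, among 5816 and 1702 genes as deposited, and 3 and 4 after scaling, among 1783 and 1058 genes.

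In OVA_Rg3 against OVA, 0 of the members tested were called under each alternative but array weights, which called 5 members and 6979 genes. Of the 7, 6 were tested with the filter of 5 FPKM and with only the groups compared (as deposited and scaled), because Rfx3 did not pass the filter there. The whole table had 1 call with the pseudocount of 0.1, 2 with the filter of 5, 2 without the 3 libraries, 2 with scaling added, 1 without these libraries and with the sum that leaves out mitochondrial genes, and 0 to 3 when single libraries were left out. In the limma values of the 7 members, signs turned under these alternatives in this comparison and in neither comparison with controls. Rfx2, 0.08 as deposited, was -0.28 after median-ratio scaling (-0.28 with the replicate block added, -0.25 with only the groups compared), -0.15 after quantile normalization, -0.35 with the pseudocount of 0.1 and -0.16 with mitochondrial genes left out of the sum, and -0.48 to 0.54 with single libraries left out. Fam183b, -0.23 as deposited, was 1.43 with array weights, 0.79 without the 3 libraries, 0.40 with scaling added and 0.60 with mitochondrial genes also left out, and -1.19 to 1.06 with single libraries left out. Riiad1, -0.49 as deposited, was 0.72, 0.19 and 0.0099 under the first, second and last of these, and -1.31 to 0.30 with single libraries left out. Rfx3 was -0.13 with scaling and without the 3 libraries, -0.023 with mitochondrial genes left out instead, and -0.039 to 0.46 with single libraries left out. That range was -0.17 to 0.87 for Foxj1 and -0.0055 to 1.10 for Nme9. Relative to Foxj1, Rfx3 turned to 0.036 with the pseudocount of 0.1 and Fam183b to 0.13 without the 3 libraries. In the exact tests of the ratio to Foxj1, leaving out the 3 libraries turned Fam183b in OVA_Rg3 against control (0.10 with all libraries above 0, -0.35 without the 3, and -0.93 in the limma fit) and Rfx3 in OVA_Rg3 against OVA (0.11 and -0.55), with exact p of 0.114 or more in these tests. Depth limits the low genes most, since 3 reads on 1 kb are worth 13.8 FPKM in OVA_Rg3 1 and 3.58 FPKM in control 2.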
